A study of Mus musculus with 3 samples.

Results

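The genes described here are 10 mouse genes of iron storage and iron movement: the ferritin chains Fth1 and Ftl1, Ncoa4, the uptake genes Tfrc, Slc11a1 and Slc11a2, the reductases Steap3 and Steap4, the exporter Slc40a1, and Hmox1. They were taken by symbol from a list of iron genes, and all 10 were found once each among the 31053 genes of the matrix. In GRCm38 the storage genes lie at chr19:9980598-9985098 (Fth1), chr7:45457944-45459884 (Ftl1) and chr14:32159865-32179855 (Ncoa4). The uptake genes lie at chr16:32608920-32632794 (Tfrc), chr1:74375195-74386062 (Slc11a1), chr15:100387898-100425072 (Slc11a2), chr1:120190757-120272705 (Steap3) and chr5:7960457-7982213 (Steap4), Slc40a1 at chr1:45908068-45926523 and Hmox1 at chr8:75093621-75100589. The study asked what nanoplastics given by mouth do to the cells of the mouse gallbladder. Male C57BL/6 mice were gavaged with nanoplastics over 3 weeks, with nanoplastics over 6 weeks, or with vehicle over 6 weeks as the control. For each treatment 10 gallbladders were pooled, cut up and digested with trypsin, and 1 droplet 3′ library (10x Genomics) was made from the pooled cells. The deposited matrix joins the 3 libraries under the numbers 1, 2 and 3, and neither the file nor the labels tie a number to a treatment, so no treatment is compared with another below. Each library is 1 pool of animals, so values carry counting intervals only, and no test over replicates could be made.

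Iron inside a cell is kept harmless in ferritin, a hollow shell of heavy chains (Fth1), which oxidise iron, and light chains (Ftl1), which help it to form the mineral core. NCOA4 carries ferritin to the lysosome, where the iron is set free. Cells take up iron bound to transferrin through the transferrin receptor (Tfrc), reduce it with STEAP proteins and pass it across endosomal membranes through DMT1 (Slc11a2), while the related NRAMP1 (Slc11a1) moves metal out of the phagosomes of phagocytes and limits microbes there. Ferroportin (Slc40a1) is the known cellular iron exporter, and heme oxygenase 1 (Hmox1) opens the heme ring and frees its iron, in macrophages largely that of engulfed red cells.

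Several of these messages carry an iron-responsive element, a short hairpin that iron regulatory proteins bind when iron is scarce. Bound in a 5′ UTR it holds back translation, and bound in a 3′ UTR it protects the message from decay, so that mRNA and protein of these genes need not follow each other. The elements are shown because 4 of the 10 genes hold a match to the search below, at the 2 ends of the message that have opposite effects. The search covered the annotated UTRs (GENCODE M21, GRCm38) on the gene's own strand for the letters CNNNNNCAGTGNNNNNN with 5 paired bases on either side of the CAGTGN loop. Capitals mark that loop, whose last letter could be any but G. Fth1 on chromosome 19 and Ftl1 on chromosome 7 hold 1 element each in the 5′ UTR, at chr19:9982738-9982754 (plus strand) and chr7:45459785-45459801 (minus strand), and Slc40a1 holds 1 in the 5′ UTR at chr1:45925471-45925487 (minus strand). Tfrc on chromosome 16 holds 4 in the 3′ UTR, at chr16:32631225-32631241, chr16:32631604-32631620, chr16:32631669-32631685 and chr16:32631716-32631732 (plus strand).
Fth1: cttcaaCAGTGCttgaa
Ftl1: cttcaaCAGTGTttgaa
Slc40a1: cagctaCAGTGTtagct
Tfrc element 1: cggaagCAGTGCcttcc
Tfrc element 2: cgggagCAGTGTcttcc
Tfrc element 3: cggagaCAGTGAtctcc
Tfrc element 4: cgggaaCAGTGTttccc
The stems of the Fth1 and Ftl1 elements have the same letters, and the Slc40a1 stem has others. The same pattern was met in the 5′ UTR of 23 of 20916 annotated genes (0.11%) and in the 3′ UTR of 100 of 21039 (0.475%). The other 6 genes held no match, which says only that these letters with such a stem are not in their annotated UTRs. An element with an unpaired base in the stem would not be found by this search.

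After filters 24993 cells were kept, 4263 in library 1, 10933 in library 2 and 9797 in library 3. Over all kept cells library 3 was the shallowest, with a median of 2288 UMIs (counted mRNA molecules) per cell, against 10381 in library 1 and 9330 in library 2. Cells were clustered and each cluster was given a cell class only from marker genes, which is why every class is written with "-like". Levels are given as CPM: the UMIs of a gene summed over the cells of 1 class in 1 library, per 1000000 UMIs of those cells. Neutrophil-like cells numbered 415, 720 and 602 in libraries 1, 2 and 3, macrophage-like cells 490, 391 and 639, and epithelial-like cells 1446, 6248 and 1566. In several classes library 3 lay in clusters of its own: its neutrophil-like cells were mostly cluster 17, those of libraries 1 and 2 mostly cluster 4. Its dendritic cell-like cells were mostly cluster 32 (led by Irf8), those of libraries 1 and 2 mostly cluster 21 (with Ccr7 and Tbc1d4 among its leading genes), and its fibroblast-like cells mostly clusters 5, 6, 8 and 10, those of libraries 1 and 2 mostly clusters 2 and 25. The epithelial-like cells of library 3 were mostly in clusters 14, 15 and 24, those of libraries 1 and 2 mostly in clusters 0, 1, 11, 20 and 22. Library 1 also held 97 of the 98 cells of a cluster with rod photoreceptor markers, which was kept out of all rankings, and 136 of the 140 cells of cluster 31, a small macrophage-like cluster with a median of 560 UMIs, without which no count below moved by over 1.5 times. Of the barcode sequences, 54 occurred in more than 1 library.

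Ferritin mRNA was present in every class, and Fth1 was highest in the phagocytes. Neutrophil-like cells had 16942, 28531 and 4880 CPM of Fth1 in libraries 1, 2 and 3, and with Ftl1 it made up 3.37% of all UMIs of these cells in library 2. Macrophage-like cells had 17949, 23092 and 4346 CPM of Fth1, and epithelial-like cells 3658, 4417 and 3223 CPM. The macrophage-like and neutrophil-like levels changed places between libraries: neutrophil-like cells were higher in libraries 2 and 3 and macrophage-like cells in library 1, so their order is not settled. By the median over libraries fibroblast-like cells followed with 10491, 14730 and 3699 CPM, and dendritic cell-like cells with 9102, 14354 and 1346 CPM. In library 3 the phagocytes led narrowly: tuft cell-like cells had 4123 CPM and smooth muscle-like cells 4119 CPM, both above fibroblast-like and dendritic cell-like cells. Fibroblast-like cluster 6 had 5375 CPM in that library, above both phagocyte classes. T cell-like cells were low, with 3237, 4583 and 1520 CPM, and plasma cell-like cells lowest, with 1190 CPM in library 2 and 575 CPM in library 3. Along the order of the 15 classes, 12 of the 14 neighbouring pairs had ranges that overlapped between libraries.

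Ftl1 was highest in macrophage-like cells by the median over libraries. They had 6397, 7316 and 1407 CPM in libraries 1, 2 and 3, neutrophil-like cells 3206, 5149 and 868 CPM, and epithelial-like cells 2162, 2237 and 1385 CPM. In each library neutrophil-like cells stayed under macrophage-like cells, at 0.501, 0.704 and 0.617 of their level. In library 3 alone a small class stood higher still, the tuft cell-like cells, with 1736 CPM in 33 cells. Both chains together made up 0.586% of UMIs in these cells, against 0.575% in macrophage-like and in neutrophil-like cells of library 3. Ftl1-ps1, a processed copy of Ftl1 that was counted as a gene of its own, had 81.7, 53.7 and 63.9 CPM in macrophage-like cells; how reads that fit both were handled is not given in the sources used here, so a small share of Ftl1 is uncertain.

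**Figure D1:**
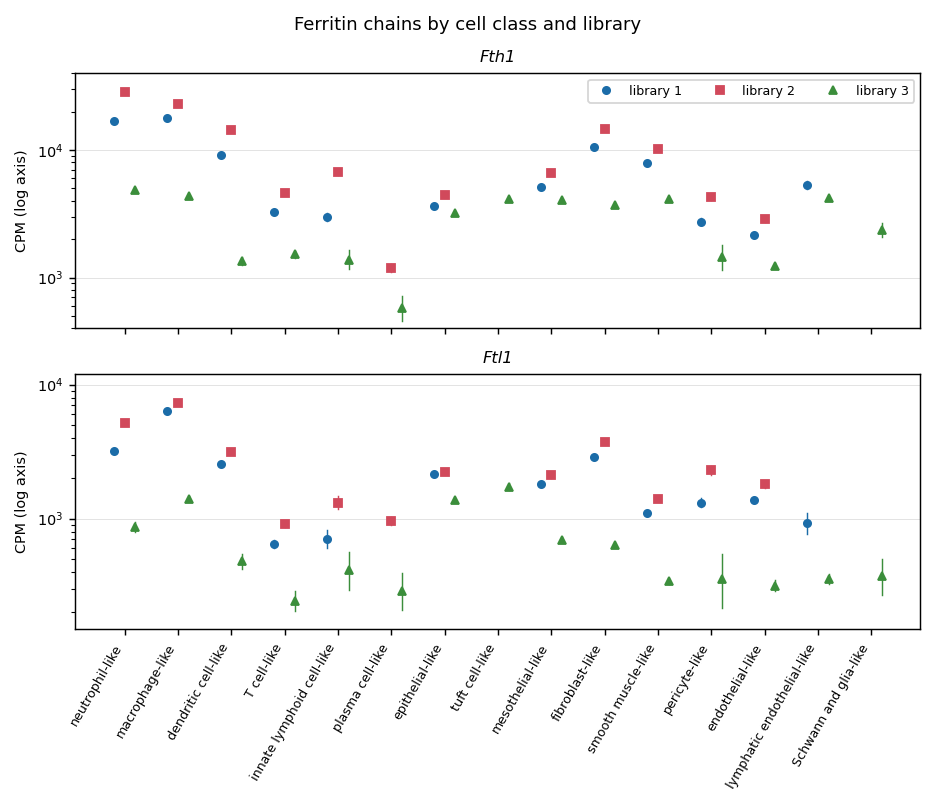
CPM of Fth1 (top) and Ftl1 (bottom) by cell class on a log axis, 1 point per library with its exact 95% Poisson interval, for classes with at least 20 cells in the library. Neutrophil-like and macrophage-like cells are at the top for Fth1, and the triangles of library 3 lie under the other points in most immune and stromal classes but close to them in epithelial-like cells.

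The balance of the chains differed between the phagocytes and the epithelium. Neutrophil-like cells had 18.9, 18.0 and 17.8 Ftl1 UMIs per 100 Fth1 UMIs in libraries 1, 2 and 3, macrophage-like cells 35.6, 31.7 and 32.4, and epithelial-like cells 59.1, 50.6 and 43.0. These 3 classes did not overlap, and the neutrophil-like ratio was nearly the same in the library with the lowest ferritin as in the others. Other classes did overlap with them: mesothelial-like cells had 35.5, 32.3 and 17.2 and pericyte-like cells 47.8, 53.9 and 24.4. Smooth muscle-like cells had the lowest ratios among classes with 3 libraries, at 14.0, 13.7 and 8.28. Endothelial-like cells were as light-chain rich as epithelial-like cells in libraries 1 and 2, with 64.2 and 63.2, but not in library 3, with 25.5. UMIs are counted at the 3′ end and so do not grow with transcript length, but the ratio is one of mRNA and says nothing of the chains in the protein shell.

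Both ferritin chains differed strongly between libraries, in some classes more than in others. Macrophage-like Fth1 was 4.13-fold higher in library 1 and 5.31-fold higher in library 2 than in library 3, and macrophage-like Ftl1 4.55- and 5.20-fold. Neutrophil-like Fth1 was 3.47- and 5.85-fold higher in libraries 1 and 2 than in library 3, and dendritic cell-like Fth1 6.76- and 10.7-fold. In epithelial-like cells the same ratios for Fth1 were 1.14 and 1.37, and for Ftl1 1.56 and 1.62. Fibroblast-like Fth1 was 2.84- and 3.98-fold higher in libraries 1 and 2 than in library 3, and mesothelial-like Fth1 1.26- and 1.62-fold. Mesothelial-like Ftl1 was 2.60- and 3.04-fold higher, a larger difference than that of epithelial-like Ftl1.

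Part of these ratios compares different clusters, above all in neutrophil-like, dendritic cell-like, fibroblast-like and epithelial-like cells. The small epithelial-like ratios are thus also ratios between different clusters. Within clusters that had at least 20 cells in every library, the Fth1 ratios to library 3 were 3.22 and 3.83 in macrophage-like cluster 9 and 3.59 and 4.94 in macrophage-like cluster 28. In fibroblast-like clusters they were smaller than over the class, at 1.45 and 2.19 in cluster 6 and 1.77 and 2.68 in cluster 10. Ftl1 kept a larger difference there, at 3.23 and 5.31 in cluster 6 and 5.40 and 6.69 in cluster 10. No cluster of neutrophil-like, dendritic cell-like or epithelial-like cells allowed this comparison.

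Few genes dropped as far in library 3 as the ferritin chains did in macrophage-like cells. The drop was measured from the lower of libraries 1 and 2, among genes at 100 CPM or more in both. Genes that rose in library 3 thus count as dropping less. Of 1215 such genes in macrophage-like cells, 98.7% dropped less in library 3 than Fth1 and 99.0% less than Ftl1. In epithelial-like cells 67.7% of 1431 dropped less than Fth1 and 89.9% less than Ftl1. Library 3 was at 1/2 or less of both other libraries for 2 of the 10 genes in macrophage-like cells (Fth1 and Ftl1), where 3.84% of all tested genes were, and for 3 of the 8 tested in neutrophil-like cells (Fth1, Ftl1 and Slc11a1), where 5.3% were. It was so for 0 of the 10 in epithelial-like cells, where 2.03% of genes were. A difference of 2-fold or more between the highest and the lowest library, in either direction, was common among all genes: it was met by 6 of 8 tested members in neutrophil-like cells (49.9% of genes), 5 of 10 in macrophage-like cells (47.7%) and 2 of 10 in epithelial-like cells (31.4%), shares near those of all genes at these small numbers. Without library 3 the 3 counts were 0, 0 and 0.

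Other measures moved with library 3, and their part in the ferritin difference was not tested. Its macrophage-like cells had a median of 1851 UMIs, against 4885 in library 1 and 3561 in library 2, and 4.44% mitochondrial UMIs, against 3.23% and 2.55%. Epithelial-like medians were 28108, 12522 and 13322.5 UMIs in libraries 1, 2 and 3, so library 3 was not the shallowest in that class. The macrophage marker C1qa had 3156, 3560 and 1605 CPM in macrophage-like cells of libraries 1, 2 and 3. The neutrophil marker S100a9 had 11334, 13034 and 1550 CPM in neutrophil-like cells, so it was low in library 3 too, and C1qa in the same cells had 8.86, 7.71 and 80.0 CPM. Treatment, pool and library cannot be told apart here.

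Ncoa4, the cargo receptor that takes ferritin to the lysosome, was highest in the mesothelial-like cells, the lining of the outer surface. They had 575 CPM in library 1 (95% Poisson interval 530 to 623), 318 CPM in library 2 (275 to 366) and 536 CPM in library 3 (511 to 562). The next class, the neutrophil-like cells, had 68.7, 69.4 and 76.4 CPM, so that the medians over libraries differed by 7.72-fold. Macrophage-like cells had 58.9, 45.1 and 48.1 CPM, and epithelial-like cells 40.0, 42.6 and 39.4 CPM. Every mesothelial-like value was far above every value of the other classes, while the others lay between 17.7 and 76.4 CPM.

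The mesothelial Ncoa4 signal was not the work of single cells. Its UMIs came from 47 of 49 cells in library 1, 45 of 61 in library 2 and 302 of 448 in library 3, and no cell gave more than 9.17% of a library's UMIs. With each cell thinned to 500 UMIs, 16.3%, 4.92% and 23.7% of mesothelial-like cells had an Ncoa4 UMI, against 2.02%, 2.78% and 3.79% of T cell-like cells, of which 1 was too shallow to thin. The value of library 2 rests on 3 cells, with an exact interval of 1.03% to 13.7% that takes in the T cell share. Without thinning the T cell shares were 18.5%, 9.28% and 9.49%, at median depths of 4811, 2130 and 1316 UMIs, against 19161, 7968 and 3314 UMIs in mesothelial-like cells. Mesothelial-like cells had 5114, 6579 and 4059 CPM of Fth1, which ranked 6th of the 15 classes by the median over libraries. In library 3 this was close to the macrophage-like 4346 CPM and above the fibroblast-like 3699 CPM. The clusters were formed from the expressed genes, Ncoa4 possibly among them, so the level is a description of that cluster.

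The genes of uptake and of transport out of endosomes and phagosomes went to different classes. Slc11a1, the phagosomal transporter, was a phagocyte gene: neutrophil-like cells had 380, 408 and 180 CPM in libraries 1, 2 and 3, macrophage-like cells 167, 152 and 87.3 CPM, and epithelial-like cells 0.687, 0.594 and 0.906 CPM. Each neutrophil-like value was above every macrophage-like value, and the next class, the pericyte-like cells, had 29.7, 36.8 and 17.7 CPM from 14, 11 and 1 UMIs. Pericyte-like cells of library 2 also held 301 CPM of the neutrophil marker S100a9, but those of library 1 had only 21.2 CPM of it beside their 29.7 CPM of Slc11a1. Smooth muscle-like cluster 12 had 49.8, 71.2 and 14.1 CPM of Slc11a1 with S100a9 at 0, 14.2 and 4.5 CPM. An Slc11a1 UMI was found in 190 of 415, 213 of 720 and 85 of 602 neutrophil-like cells, against 2 of 249, 2 of 970 and 3 of 369 T cell-like cells. Thinned to 500 UMIs, the neutrophil-like shares were 18.2%, 18.6% and 9.47%, and the T cell-like shares were 0% with upper exact limits of 1.48%, 0.38% and 0.995%.

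Slc11a2, the endosomal and plasma membrane importer of ferrous iron, was the reverse between the same phagocytes. Macrophage-like cells had 124, 115 and 89.2 CPM, against 5.54, 9.0 and 12.4 CPM in neutrophil-like cells, which rested on 5, 7 and 7 UMIs. Epithelial-like cells had 9.01, 8.91 and 10.0 CPM. The lowest macrophage-like value was above the highest value of any other class, which was 35.5 CPM in library 3 T cell-like cells.

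Tfrc, the receptor for transferrin-bound iron, had no clear leader. Innate lymphoid cell-like cells had 69.1, 37.1 and 131 CPM, but from 17, 8 and 13 UMIs, with Poisson intervals of 40.2 to 111, 16 to 73 and 69.7 to 224. Endothelial-like cells had 105, 59.4 and 55.9 CPM from 115, 38 and 77 UMIs and were the higher class in libraries 1 and 2. Their ranges overlap, and so do those of 12 of the 14 neighbouring pairs along the order. Neutrophil-like cells had 32.1, 38.6 and 64.0 CPM, macrophage-like cells 32.0, 24.7 and 69.6 CPM, and epithelial-like cells 25.1, 20.9 and 31.3 CPM.

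Steap3 and Steap4, which turn ferric into ferrous iron, were highest in stromal classes. Steap3, the reductase first known from red cell precursors, had 23.7, 21.1 and 27.8 CPM in fibroblast-like cells and 22, 17.9 and 12.5 CPM in mesothelial-like cells, with overlapping ranges. Macrophage-like cells had 4.76, 4.32 and 8.23 CPM. In neutrophil-like cells it had 0, 0 and 1 UMIs; 3 counts, taken as the limit of what 0 allows, would be 3.32 CPM in library 1 and 3.86 CPM in library 2.

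Steap4, a reductase known from adipose tissue and inflammation, was highest in the pericyte-like class in every library. Pericyte-like cells had 301 CPM in library 1 (253 to 355), 141 CPM in library 2 (101 to 190) and 1363 CPM in library 3 (1076 to 1704). Fibroblast-like cells were next, with 60.6, 59.0 and 137 CPM, and neutrophil-like cells had 21.0, 16.7 and 53.3 CPM. Every pericyte-like value was above every fibroblast-like value, but 141 CPM (pericyte-like, library 2) and 137 CPM (fibroblast-like, library 3) were close. Fibroblast-like cluster 8, which lay almost wholly in library 3, had 239 CPM there. That is above the pericyte-like value of library 2 and under that of library 3. The high pericyte-like value of library 3 rested on 77 UMIs in 37 cells, of which 18 had a UMI and the highest gave 16.9% of them. With cells gated one by one on the markers the median over libraries was 166 CPM, against 301 CPM here, without library 1 it was 752 CPM and without library 2 832 CPM. Thinned to 500 UMIs, 13.4%, 10.0% and 32.4% of pericyte-like cells had a Steap4 UMI, against 0%, 0% and 0.542% of T cell-like cells, where a count of 0 has upper exact limits of 1.48% and 0.38%.

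Slc40a1, the exporter ferroportin, was low, and neutrophil-like cells had the most of it in every library. They had 48.7 CPM in library 1 (35.4 to 65.4), 47.6 CPM in library 2 (33.5 to 65.6) and 123 CPM in library 3 (95.4 to 155). Macrophage-like cells had 17, 18.5 and 44.9 CPM, and epithelial-like cells 23.6, 22.8 and 47.2 CPM. All 3 classes were highest in library 3. The tuft cell-like class, which reached 20 cells only in library 3, had 49.0 CPM there (33.5 to 69.1); its single value stands just above the neutrophil-like median over libraries, and within library 3 it is under the neutrophil-like value. The neutrophil-like UMIs came from 34, 32 and 56 cells, the highest giving at most 15.9%. Free epithelial RNA was set beside this by a marker: neutrophil-like cells held 9.22%, 13.2% and 15.2% of the epithelial level of Krt8, and the same shares of epithelial Slc40a1 are 2.18, 3.0 and 7.19 CPM.

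Hmox1, the heme-degrading enzyme, was highest in macrophage-like cells, with 505, 424 and 732 CPM in libraries 1, 2 and 3. Neutrophil-like cells had 65.4, 63.0 and 155 CPM, and epithelial-like cells 40.0, 31.2 and 35.2 CPM. Mesothelial-like cells had 372, 340 and 227 CPM, fibroblast-like cells 291, 300 and 173 CPM, and smooth muscle-like cells 207, 340 and 138 CPM. These 3 classes came nearest to the macrophage-like level in library 2 and lay furthest under it in library 3. Pericyte-like cells were lower, with a median over libraries of 63.6 CPM. The ranges of the macrophage-like and the mesothelial-like cells did not overlap. Library 3 was the highest for Hmox1 in macrophage-like and neutrophil-like cells and the lowest in mesothelial-like, fibroblast-like and smooth muscle-like cells. Beside the neutrophil-like Hmox1 of library 3, these cells held 4.98% of the macrophage-like level of C1qa, and that share of macrophage-like Hmox1 is 36.5 CPM. Thinned to 500 UMIs, 18.3%, 18.2% and 28% of macrophage-like cells had an Hmox1 UMI, against 0.806%, 0.309% and 2.98% of T cell-like cells. T cell-like cells ranked 14th of the 15 classes for Hmox1, so these shares do not order the higher classes.

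**Figure D2:**
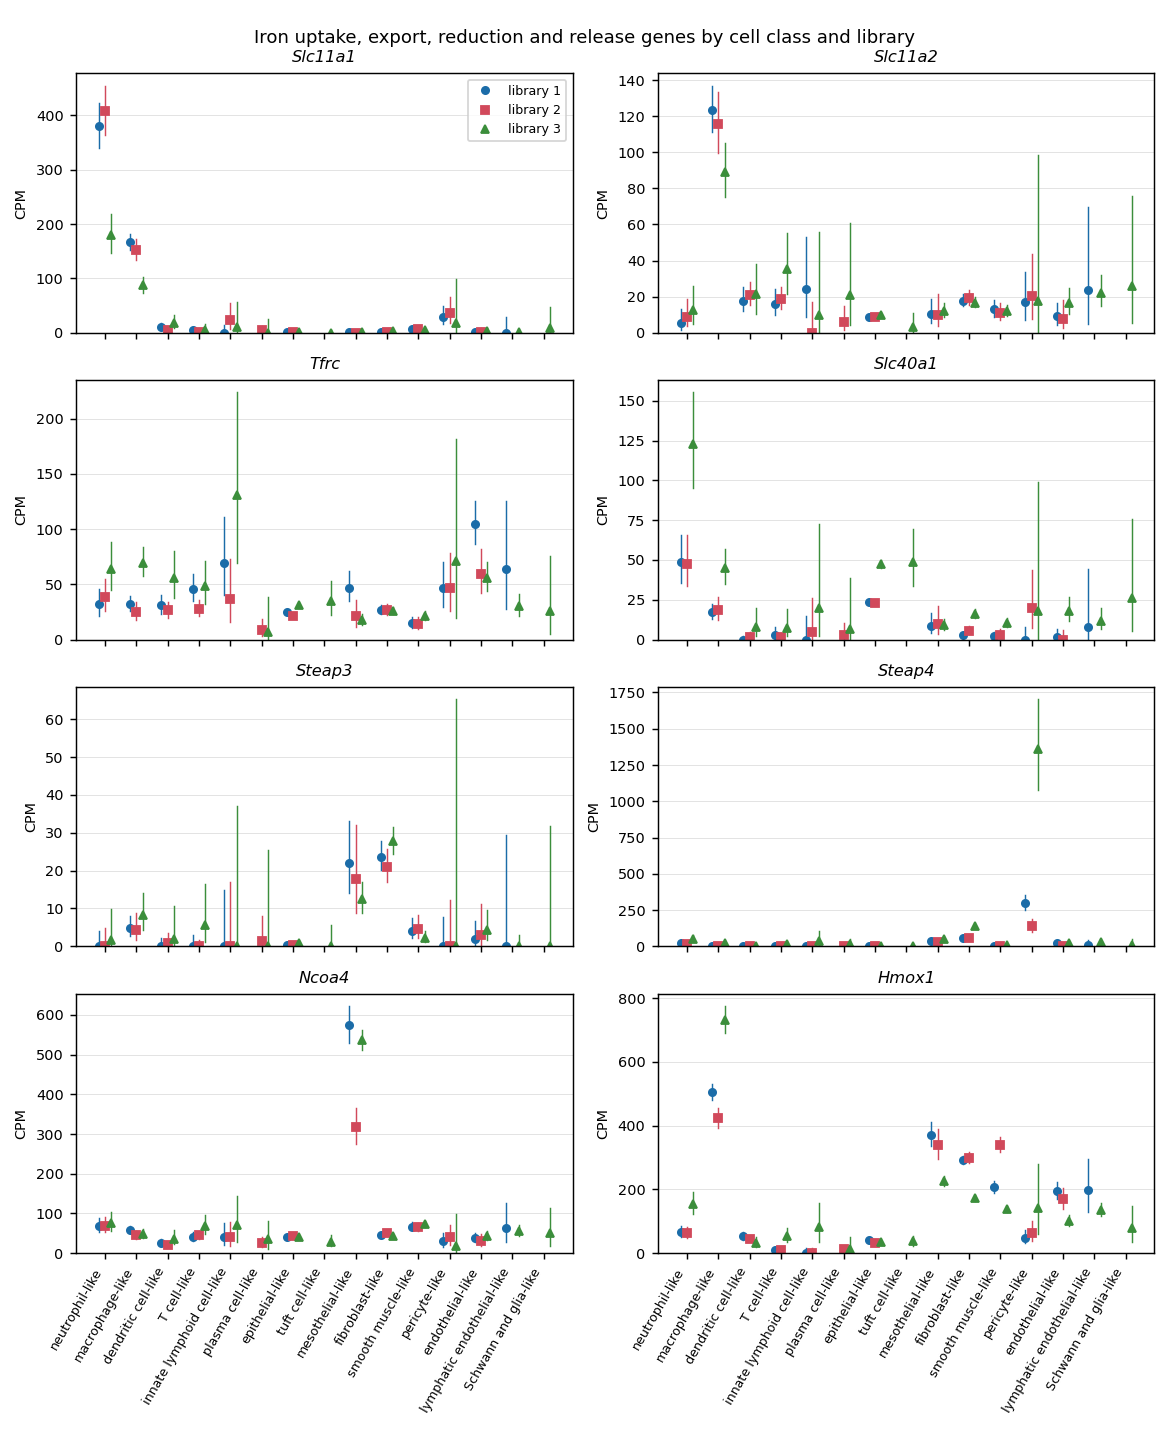
CPM of the other 8 genes by cell class on linear axes that start at 0, 1 point per library with its exact 95% Poisson interval. Slc11a1 is highest in the phagocytes at the left, Slc11a2 in macrophage-like, Ncoa4 in mesothelial-like and Steap4 in pericyte-like cells, while Tfrc is spread over many classes with wide intervals.

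By the class with the highest median over libraries, macrophage-like cells led 4 of the 10 genes (Fth1, Ftl1, Slc11a2 and Hmox1), where 3.36% of the 13158 genes at 10 CPM or more in some class were highest in them. Neutrophil-like cells led Slc11a1 (7.77% of all genes), mesothelial-like cells Ncoa4 (5.68%), pericyte-like cells Steap4 (4.79%), fibroblast-like cells Steap3 (3.85%), innate lymphoid cell-like cells Tfrc (4.7%) and tuft cell-like cells Slc40a1 (10.5%). Epithelial-like cells led 0 of the 10 (6.03% of all genes). Each of these single genes is near the share of all genes at this number, and by this rule macrophage-like cells are the class with more than 1. Taken library by library, neutrophil-like cells were highest for Slc11a1 and Slc40a1 in every library and for Fth1 in libraries 2 and 3. The neutrophil count was the least steady of the counts by class: it was 3 with the UMIs pooled over libraries, without library 1 and without library 3, and 2 without library 2.

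Within the macrophage-like class Hmox1 and Slc11a2 differed between clusters. Cluster 9, with Mrc1 and C1q genes at its head, had 856, 554 and 1277 CPM of Hmox1 in libraries 1, 2 and 3. Cluster 26, with 103, 162 and 7 cells and so with values for libraries 1 and 2, and with C1qa at 3664 and 4729 CPM, had 267 and 353 CPM of Hmox1. Cluster 28, led by Retnla, Ccl6 and Ccl9 and low in C1qa at 552, 550 and 137 CPM, had 315, 325 and 124 CPM. Mesothelial-like cells, with 372, 340 and 227 CPM, were above cluster 28 in every library and above cluster 26 in library 1, but under cluster 26 in library 2. So the macrophage-like lead in Hmox1 was mainly that of cluster 9.

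Among the macrophage-like clusters Hmox1 was thus highest in cluster 9 in every library. So was Slc11a2, with 200.4, 177 and 147 CPM in cluster 9, 79.0 and 82.2 CPM in cluster 26, and 66.7, 65.8 and 25.8 CPM in cluster 28. Slc40a1 was at 22.8, 24.4 and 80.4 CPM in cluster 9 and at 19.5 and 20.2 CPM in cluster 26, and cluster 28 had 0, 0 and 4.08 CPM, where 3 counts would be 6.06 CPM in library 1 and 11.6 CPM in library 2. Exporter mRNA was thus detected in the C1q-rich clusters, and in the C1q-poor one it was under those limits or at 3 UMIs. Spic, the transcription factor known from iron-recycling macrophages of the spleen, had 191, 226 and 98.7 CPM in cluster 9, 41.6 and 82.2 CPM in cluster 26, and 12.1, 0 and 2.72 CPM in cluster 28. The cells were clustered on these same libraries, so the cluster values are a description.

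Fth1 had another order. Cluster 26 was the highest, with 23941 and 29707 CPM, against 13161 and 15655 CPM in cluster 9 and 15932 and 21920 CPM in cluster 28 of the same libraries. Tfrc was lowest in cluster 26, with 11.9 and 9.43 CPM, against 55.0 and 45.5 CPM in cluster 9 and 30.3 and 19.4 CPM in cluster 28. Cluster 31 had 13334 CPM of Fth1 and 23.7 CPM of Hmox1 in library 1. It held no UMI of Slc11a2, Slc40a1 or Tfrc, but at its depth 3 counts are 35.5 CPM, so low levels of these were not detectable.

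**Figure D3:**
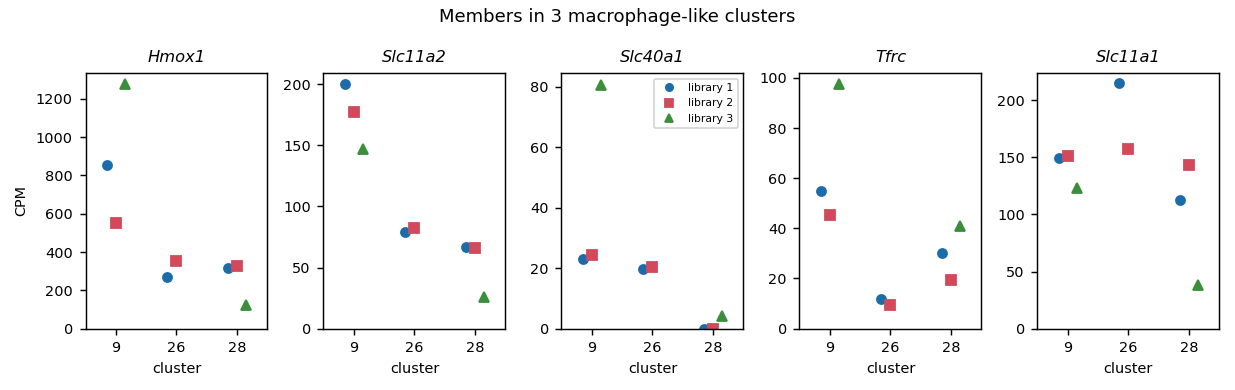
CPM of Hmox1, Slc11a2, Slc40a1, Tfrc and Slc11a1 in macrophage-like clusters 9, 26 and 28, 1 point per library, with axes from 0 and no interval drawn. Cluster 9 is the highest for Hmox1 and Slc11a2 in every library, and Slc40a1 is lowest in cluster 28.

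Set against macrophage-like cells within each library, neutrophil-like cells were higher at 2-fold or more in all 3 libraries for Slc11a1, Slc40a1 and Steap4 and lower for Hmox1, Slc11a2 and Steap3. That is 3 of 10 higher, where 7.63% of the 11234 tested genes were, and 3 of 10 lower, where 11.2% were. Hmox1 was 7.73-, 6.73- and 4.73-fold lower and Slc11a2 22.3-, 12.8- and 7.17-fold lower in neutrophil-like cells. Steap3 counts as lower through its 0 UMIs, and the limit a count of 0 allows is too near the macrophage-like 4.76 and 4.32 CPM to show 2-fold.

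The higher calls were less firm. Slc11a1 was 2.27-, 2.67- and 2.06-fold higher (in library 3 with an interval of 1.57 to 2.68), Slc40a1 2.86-, 2.57- and 2.73-fold, and Steap4 20.6-, 9.03- and 2.41-fold, the first of these over 3 macrophage-like UMIs (interval 6.07 to 109). With doublets kept, at clustering resolution 0.5 or with 20 principal components, the count of higher genes was 0. Under these settings 0, 3 and 93 of the 251 cells of cluster 28 were named macrophage-like. With cluster 28 alone left out, the count of higher genes was also 0, so each of the 3 calls rests on that cluster. Slc11a1 also missed 2-fold in a library when at least 500 genes per cell were asked for. Beside neutrophil-like Steap4, these cells held 0.862%, 0.508% and 4.99% of the fibroblast-like level of Dcn, and those shares of fibroblast-like Steap4 are 0.522, 0.299 and 6.85 CPM, against 21.0, 16.7 and 53.3 CPM seen. By the pericyte marker Rgs5 the like values are 0.658, 0.058 and 3.43 CPM. Ftl1 was lower in neutrophil-like cells in every library but past 2-fold in none, and Fth1 went both ways.

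Over epithelial-like cells, neutrophil-like cells were higher for 3 of the 10 genes (12.7% of 15455 tested genes) and lower for 0 (28.6%). Slc11a1 was 553-, 686- and 198-fold higher, Steap4 5.24-, 4.97- and 9.26-fold, and Slc40a1 2.07-, 2.08- and 2.60-fold, with intervals of libraries 1 and 2 that reach down to 1.49 and 1.46. Fth1 was 4.63- and 6.46-fold higher in libraries 1 and 2 but 1.51-fold in library 3, so it missed the rule through library 3. Without that library 1 of 10 genes was lower in neutrophil-like cells, Steap3, at 0 UMIs in both remaining libraries, where 3 counts are above the epithelial-like level. Macrophage-like cells were higher than epithelial-like cells for 4 genes (13.9% of 15620 tested genes) and lower for 0 (22.8%). Slc11a1 was 243-, 257- and 96.4-fold higher, Hmox1 12.6-, 13.6- and 20.8-fold, Slc11a2 13.7-, 13- and 8.93-fold, and Steap3 13.5-, 11- and 8.2-fold. Macrophage-like Slc40a1 was under the epithelial level in all libraries, at 0.721, 0.811 and 0.951 of it, and the intervals of libraries 2 (0.546 to 1.16) and 3 (0.739 to 1.21) take in 1.

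Within the epithelium, cells above the library's median for Lcn2 (lipocalin 2, which binds bacterial iron carriers) and below it for Aqp1 (a water channel) were set against cells with the opposite pattern. This cut is a range and not a cell type, and in library 3 the Lcn2 median was 0. Within 1.5-fold of the Aqp1 median lay 108, 452 and 282 epithelial-like cells of libraries 1, 2 and 3, and within 1.5-fold of the Lcn2 median 89 and 795 of libraries 1 and 2. The Lcn2-high cells numbered 560, 2576 and 485, and the Aqp1-high cells 560, 2576 and 638. Steap4 alone passed 2-fold in every library, with 8.64, 7.85 and 13.7 CPM in Lcn2-high cells, against 0.502, 0.237 and 2.12 CPM in Aqp1-high cells, 1 of 10 genes where 6.26% of all genes were higher; 0 of 10 were lower, where 2.7% were.

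The uptake genes leaned the same way. Tfrc was at 34.5, 29.7 and 38.8 CPM in Lcn2-high cells, against 15.9, 13.8 and 22.5 CPM in Aqp1-high cells. Slc11a2 was at 12.9, 12.2 and 14.7 CPM in Lcn2-high cells, against 5.12, 5.62 and 7.49 CPM in Aqp1-high cells. Both were past 2-fold in libraries 1 and 2 and under it in library 3, at 1.73-fold for Tfrc and 1.97-fold for Slc11a2, so that without library 3 the count of higher genes was 3. The ferritin chains parted: Fth1 was 1.29-, 1.29- and 1.32-fold higher in Lcn2-high cells, and Ftl1 was at 0.653, 0.746 and 0.837 of the Aqp1-high level. Slc40a1 was at 22.3, 20.7 and 32.7 CPM in Lcn2-high cells, against 25.9, 25 and 55.3 CPM in Aqp1-high cells. Hmox1 was at 29.9, 25 and 33.3 CPM in Lcn2-high cells, against 48.7, 37.6 and 32.8 CPM in Aqp1-high cells, with a ratio in library 3 of 1.01 (0.876 to 1.17).

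**Figure D4:**
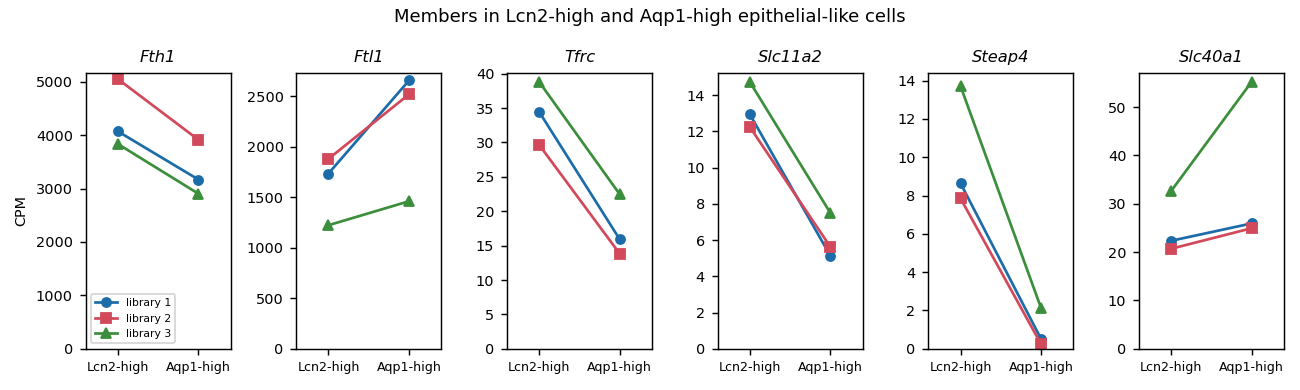
CPM of 6 of the genes in Lcn2-high (left) and Aqp1-high (right) epithelial-like cells, with axes from 0 and a line for each library. Fth1, Tfrc, Slc11a2 and Steap4 fall to the right and Ftl1 and Slc40a1 climb, in each of the 3 libraries.

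Of 45 other genes of iron, heme and iron-sulfur handling, 43 were in the matrix and 38 reached 10 CPM in some class. Macrophage-like cells led 7 of these (3.36% of all genes): Trf, the iron carrier transferrin, had 590, 396 and 505 CPM there, and Cd163, the receptor for hemoglobin bound to haptoglobin, had 264, 171 and 565 CPM, with Blvra, Blvrb, Hmox2, Slc25a28 and Spic. Neutrophil-like cells also led 7 (7.77%), among them Hp (haptoglobin) with 237, 252 and 99.6 CPM, and Fbxl5, which marks an iron regulatory protein for degradation, with 153, 162 and 171 CPM. Mesothelial-like cells led 7 (5.68%), among them Slc39a8, a transporter of zinc, manganese and iron, with 1508, 1061 and 1561 CPM. So mesothelial-like cells led Slc39a8 as well as Ncoa4, and the next class for Slc39a8 was at a median of 18.5 CPM. Lymphatic endothelial-like cells led 6 of the list (8.82% of all genes), Cp among them, and Schwann and glia-like cells, with a value in library 3 only, led 4 (20.7%).

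Neutrophil-like against macrophage-like cells, 6 of 32 tested list genes were higher (Hp, Lcn2, Iscu, Fbxl5 and Alas1 the highest by CPM, 7.63% of all genes) and 6 lower (among them Cd163, Blvrb, Spic, Cp and Hfe, 11.2% of all genes). Beside the neutrophil-like Lcn2 of 230.4, 368 and 112 CPM, the Krt8 share of epithelial-like Lcn2 is 170, 243 and 76.1 CPM. Against epithelial-like cells, 7 of 38 were higher in neutrophil-like cells (12.7% of all genes) and 10 lower (28.6%), Lcn2 and the iron-binding Ltf (lactoferrin) among the lower ones. Macrophage-like against epithelial-like cells, 9 of 38 were higher (13.9% of all genes) and 8 lower (22.8%). Blvrb, a biliverdin and flavin reductase, had 9.97, 23.1 and 8.89 CPM in neutrophil-like cells and 203, 301 and 42.4 CPM in macrophage-like cells. In Lcn2-high against Aqp1-high cells 5 of 38 were higher (6.26% of all genes), Lcn2 among them by the choice of the cells, and 0 lower (2.7%). Cp, the ferroxidase ceruloplasmin, had 75.5, 46.2 and 112 CPM in Lcn2-high cells and 1.66, 1.16 and 5.45 CPM in Aqp1-high cells. The median log2 differences of the 10 genes were 0.09 for neutrophil-like over macrophage-like cells (all genes -0.07), 0.92 for neutrophil-like over epithelial-like (all genes -0.35), 1.83 for macrophage-like over epithelial-like (all genes -0.22) and 0.22 for Lcn2-high over Aqp1-high cells (all genes 0.11).

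Across the 39 sums of a class in a library, the gene most like Fth1 among 14327 was Ftl1 (Pearson r = 0.81 on log2 of CPM + 10), and the gene most like Ftl1 was Fth1. For Slc11a1 these were Cxcl2 (0.93), C5ar1 and Il1a, for Slc11a2 Fcrls (0.85), C1qb and Mmp13, and for Ncoa4 Lrp2 (0.92), Myl7 and Muc16. Hmox1 went with Tnfsf12 (0.80), Fcgrt and Dab2, Steap4 with Angptl2 (0.87), Spin4 and Pla2r1, and Steap3 with Slc1a3 (0.90), Cpz and Sfrp2. Slc40a1 went with Pgd (0.87), Gsr and Atp6v1b2, and Tfrc with Thrap3 (0.78), Fubp1 and Trip12. These sums share libraries and depth, so the values are a description of these points.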

How the data were processed

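The authors deposited 1 matrix of UMI counts over all libraries, from Cell Ranger 6.1.1 (per the file headers) on GRCm38 (mm10) per the submitters' processing notes; the annotation version and the handling of reads shared by genes are not given in the sources used here. Library totals were 72943584, 121349261 and 58172348 UMIs. The genes and gene lists were chosen with earlier results of these data known.

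Barcodes under 300 genes (1015) or over 20% mitochondrial UMIs (668) were dropped, and 1024 scored doublets (3.94%) were removed, with a score computed here from simulated pairs. Counts were scaled to 10000 per cell, and 2000 variable genes, 30 principal components and 15 neighbours gave 39 Leiden clusters at resolution 1.0 (scanpy 1.11.5, leidenalg 0.10.2, Python 3.11.15). A cluster took the name of a marker list with at least 3 of its markers in 20% of cells; 1 cluster of 605 cells stayed unnamed. After the first naming left 2 Aqp1-rich epithelial clusters unnamed over a single acinar marker, only a list that could itself name a cluster was let count against a name; this was chosen after seeing the data. Gating cells one by one on the markers gave the same name to 95.2% of the 16130 cells named both ways. T cell-like cells include natural killer-type cells. No cluster was monocyte-like, so the planned comparison of macrophages with monocytes was not made.

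Levels are CPM of summed counts in classes with at least 20 cells in a library; a class is ranked by its median over libraries, with at least 10 CPM in some class. A gene counts as higher or lower at 2-fold in every library with at least 20 UMIs over both classes. Exact 95% Poisson intervals cover counting error only; the limit of a count of 0 is 3 counts. Named genes are all 10 members, list genes past a rule (at most the 5 highest in a direction) and the 3 most similar genes of each member. The call rule was tested on simulated data. Iron-responsive elements were searched in the GENCODE M21 transcripts. Alternatives changed the filters, clustering, naming, libraries, CPM denominator and fold; 3 (without cluster 31, without cluster 28, without clusters 1 and 22) were added after seeing the data.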

Additional observations from a re-analysis of the deposited data

How the results depend on the processing

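No paired analysis was possible because each library is 1 pool and the library numbers are tied to no treatment. Of the counts reported, 182 alternatives stayed within 1.5 times the main count and 29 did not; no direction of a called value reversed. Genes highest in neutrophil-like cells (main 1) were 2 with a limit of 10% mitochondrial UMIs, with 20 principal components and with cells gated one by one, 3 with doublets kept and with pooled UMIs, and 2 to 3 leaving out 1 library. Genes higher in neutrophil-like than in macrophage-like cells (main 3) were 0 with doublets kept, at resolution 0.5, with 20 principal components, at 3-fold and without cluster 28, and 1 with cells gated one by one. Genes higher in neutrophil-like than in epithelial-like cells (main 3) were 5 with pooled UMIs and 6 at 1.5-fold, and genes lower (main 0) were 1 without library 3. Genes higher in Lcn2-high cells (main 1) were 4 with pooled UMIs, 3 without library 3 and 3 at 1.5-fold. Genes past 2-fold between libraries were 0 without library 3 in neutrophil-like (main 6), macrophage-like (main 5) and epithelial-like cells (main 2); at 3-fold they were 3, 3 and 0, at 1.5-fold 8 in macrophage-like and 5 in epithelial-like cells, and with cells gated one by one 4 in epithelial-like cells. The 4 genes led by macrophage-like cells were 3 to 4 under every alternative. Macrophage-like Fth1 and Ftl1 moved by over 1.5 times without library 2, to medians of 11148 and 3902 CPM. Leaving out cluster 31, or epithelial clusters 1 and 22, moved none of these counts by over 1.5 times. A changed fold, a pooled sum or a library left out changes the rule itself; for the other changes the cause was not tested. Depth limits Steap3 in phagocytes, Tfrc in innate lymphoid cell-like cells and Slc40a1, whose values rest on few UMIs.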

Other observations

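Values outside the comparisons above concern cells that could not be placed. The rod photoreceptor-like cells of library 1 had 2804 CPM of Fth1 and 732 CPM of Ftl1, close to its T cell-like cells with 3237 and 648 CPM, and no UMI of Slc11a1, Slc40a1 or Steap3. Epithelial-like cells high in both Lcn2 and Aqp1 lay between the other kinds for Fth1, with 3904, 4284 and 3128 CPM in libraries 1, 2 and 3, and for Ftl1, with 1977 and 2265 CPM in libraries 1 and 2; in library 3 they had the highest Ftl1 of the 4 kinds, 1570 CPM. In library 3, cells low in both had the highest Tfrc of the 4 epithelial kinds, at 51.8 CPM, against 38.8 CPM in Lcn2-high, 24.5 CPM in double-high and 22.5 CPM in Aqp1-high cells; in libraries 1 and 2 the Lcn2-high cells were the highest. Marker-gated monocyte-like cells numbered 67 in all.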
